A study of Mus musculus with 16 samples.

Results

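Keratins are the intermediate filament proteins of epithelial cells, and 8 of them were followed across the cell classes of mouse mammary tumors. The set holds the basal keratins Krt5, Krt14, Krt15 and Krt17 and the luminal keratins Krt7, Krt8, Krt18 and Krt19, 8 of the 19822 genes in the count tables and 8 of the 25 numbered keratin genes there. They were chosen by name, and were read in the barcodes that carried 450 to 4000 genes and under 20% mitochondrial UMIs (unique molecular identifiers, 1 for each captured mRNA molecule), by tumor model and by a cell class defined from marker genes other than keratins. Drop-seq, a droplet method in which a bead tags the mRNA of each cell with a barcode at its 3′ end, had been run on sorted live single cells of untreated end-stage mammary tumors of FVB/n females from 2 models. WB1P tumors had the genotype WapCre;Brca1F/F;Trp53F/F, in which Cre under the whey acidic protein promoter, active in mammary epithelium, deletes Brca1 and Trp53. WB1P-Myc tumors carried the same alleles and a Cre-activated Myc transgene. Tumors of 2 mice per model were used, but no library is assigned to a mouse, and each model was loaded as 1 cell suspension and collected in 4 droplet fractions, sequenced as 4 HiSeq libraries. The fractions are therefore taken as technical replicates, there is no test between models, and the model and its cell suspension cannot be told apart. Intervals below are exact 95% intervals that cover counting error only, and the values of the 4 fractions are given in the order 1 to 4.

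Keratin filaments are built from pairs of a type II keratin, here Krt5, Krt7 or Krt8, and a type I keratin, here Krt14, Krt15, Krt17, Krt18 or Krt19. In the mammary gland Krt5 and Krt14 mark the basal and myoepithelial layer that rests on the basement membrane, while Krt8 and Krt18 are the pair of the luminal cells that line the ducts and alveoli. Krt17 and Krt15 belong to the basal side of stratified epithelia, and Krt7 and Krt19 partner with the luminal pair in simple epithelia.

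The type II members lie on chromosome 15 and the type I members on chromosome 11, with the exception of Krt18, a type I gene on chromosome 15 that starts 23.7 kb from Krt8 on the opposite strand (GRCm38, GENCODE M21). The 4 members on chromosome 11 span 129 kb on the minus strand, with Krt15 at chr11:100131758-100135928, Krt19 at chr11:100140810-100148665, Krt14 at chr11:100203162-100207548 and Krt17 at chr11:100256217-100261029. The 4 on chromosome 15 span 621 kb, with Krt7 at chr15:101411043-101430313, Krt5 at chr15:101707070-101712898, Krt8 at chr15:101996698-102004482 and Krt18 at chr15:102028180-102032027. The promoter windows of the luminal genes that differed most between the models and of Krt5 are shown because the levels of these genes differed between the models. Each window is 300 bases around the start in RefSeq on GRCm38.p6, read 5′ to 3′ on the gene's strand. Capitals mark letters that matched 1 of the motifs searched on both strands, the TATA box (TATAAA), the CCAAT box (CCAAT), the GC box (GGGCGG), the AP-1 motif (TGACTCA) and the AP-2 motif (GCCNNNGGC), where adjoining or overlapping matches form 1 run of capitals.
Krt7, chr15:101412153-101412452, plus strand: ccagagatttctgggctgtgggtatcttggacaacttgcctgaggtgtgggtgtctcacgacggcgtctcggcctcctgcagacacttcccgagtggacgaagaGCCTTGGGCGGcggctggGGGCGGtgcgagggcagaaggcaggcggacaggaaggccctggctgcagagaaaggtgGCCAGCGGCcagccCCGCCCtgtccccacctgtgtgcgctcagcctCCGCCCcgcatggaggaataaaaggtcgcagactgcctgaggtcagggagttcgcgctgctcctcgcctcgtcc
Krt8, chr15:102004293-102004592, minus strand: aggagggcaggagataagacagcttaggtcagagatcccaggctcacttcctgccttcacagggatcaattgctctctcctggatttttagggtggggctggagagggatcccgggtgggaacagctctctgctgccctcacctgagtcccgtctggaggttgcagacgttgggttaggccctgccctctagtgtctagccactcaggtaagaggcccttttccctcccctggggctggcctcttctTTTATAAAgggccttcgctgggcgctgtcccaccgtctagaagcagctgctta
Krt18, chr15:102027966-102028265, plus strand: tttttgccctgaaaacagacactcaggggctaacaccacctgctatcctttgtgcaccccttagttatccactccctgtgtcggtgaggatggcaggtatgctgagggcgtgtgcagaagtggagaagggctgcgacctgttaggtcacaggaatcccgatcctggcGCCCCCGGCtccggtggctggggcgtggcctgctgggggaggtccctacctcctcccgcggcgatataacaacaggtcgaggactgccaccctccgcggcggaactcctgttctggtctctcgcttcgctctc
Krt5, chr15:101712856-101713155, minus strand: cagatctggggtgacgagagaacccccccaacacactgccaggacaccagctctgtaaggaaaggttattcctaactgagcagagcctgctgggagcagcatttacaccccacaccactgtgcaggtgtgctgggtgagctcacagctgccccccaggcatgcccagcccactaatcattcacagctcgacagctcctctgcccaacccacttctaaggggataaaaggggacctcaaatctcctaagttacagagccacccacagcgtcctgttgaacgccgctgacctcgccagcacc
The Krt7 window held 4 GC boxes and 2 AP-2 motifs, 1 of which overlaps a GC box, the Krt18 window held 1 AP-2 motif, and the Krt8 window held a TATA box read on both strands at its annotated start. No motif of the 5 was found in the Krt5 window. Of all 32851 RefSeq windows of this length, 35.7% held a GC box, 16.6% an AP-2 motif, 13.6% a TATA box, 37.4% a CCAAT box and 5.20% an AP-1 motif. The Krt7 window lies inside the gene as GENCODE draws it, and so does the Krt14 window, which held no match and is not shown. Krt15, Krt17 and Krt19 were not in the table.

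The filters kept 4798 cells, 65 to 426 per WB1P library and 756 to 950 per WB1P-Myc library, and the 8 libraries held 256985 to 4960334 UMIs. Over the 28 pairs of libraries 1 kept barcode in all was shared. Clusters drawn without keratins gave macrophage-like (377 WB1P and 701 WB1P-Myc cells), fibroblast-like (217 and 274), endothelial-like (38 and 71), epithelial-like (658 and 827) and Schwann-like cells (1017, all WB1P-Myc, in which 6 of 7 chondrocyte markers led beside 9 of 11 Schwann markers), and 618 shallow cells that stayed unnamed. Different clusters held the epithelial-like cells of the models: 657 of the WB1P cells were in a cluster led by Csn3, Lcn2 and Wfdc2 and by 10 of 13 epithelial markers, and 816 of the WB1P-Myc cells were in a cluster led by Bex1, Gpx2 and Crabp1, in which 5 of 13 epithelial markers led. Epithelial-like, Schwann-like and unnamed cells together are called the tumor compartment here, 675 WB1P cells (median 1834 UMIs) and 2445 WB1P-Myc cells (median 2817 UMIs), although no cell was genotyped. Myc itself was at 67.1 CPM (the UMIs of a gene over all UMIs of the class, on the usual CPM scale) in WB1P and 161 CPM in WB1P-Myc tumor-compartment cells, with the fractions at 33.6 to 93.6 and at 138 to 178 CPM. Brca1 (5.39 and 15.3 CPM) and Trp53 (7.84 and 18.3 CPM) were still counted, but tags from the 3′ end can lie outside the deleted parts and check nothing. In the transgene IRES-Luc follows Myc, so 3′ tags of its mRNA can lie outside Myc, and the Myc levels are no check of it.

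Across the tumor compartment, luminal keratins were 5.12-fold lower in WB1P-Myc than in WB1P, while the fractions of the models overlapped for the sum of the basal keratins. Luminal keratins were at 2718 CPM in WB1P (4335, 2429, 2996 and 2594 CPM in its fractions) and 531 CPM in WB1P-Myc (475, 448, 748 and 478 CPM), a log2 ratio of -2.36 (-2.41 to -2.30). All 4 WB1P fractions were above all 4 WB1P-Myc fractions. Basal keratins were at 201 CPM in WB1P (302, 230, 228 and 134 CPM) and 234 CPM in WB1P-Myc (247, 190, 295 and 205 CPM), a log2 ratio of 0.22 (0.07 to 0.37) with fractions that overlapped. Of the 8 members, 5 differed by at least 2-fold with the fractions of the models fully apart, against 23.8% of the 10981 genes with at least 50 UMIs. Krt5 and Krt15 were higher in WB1P-Myc (14.5% of all genes tested were) and Krt7, Krt8 and Krt18 were lower (9.23%). Krt5, with 150 UMIs in WB1P-Myc and 0 in WB1P, and Krt15, with 68 and 3, reached 50 UMIs only through WB1P-Myc, so their calls add nothing to the count of members. Without that filter 15.9% of 19449 genes were called.

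**Figure D1:**
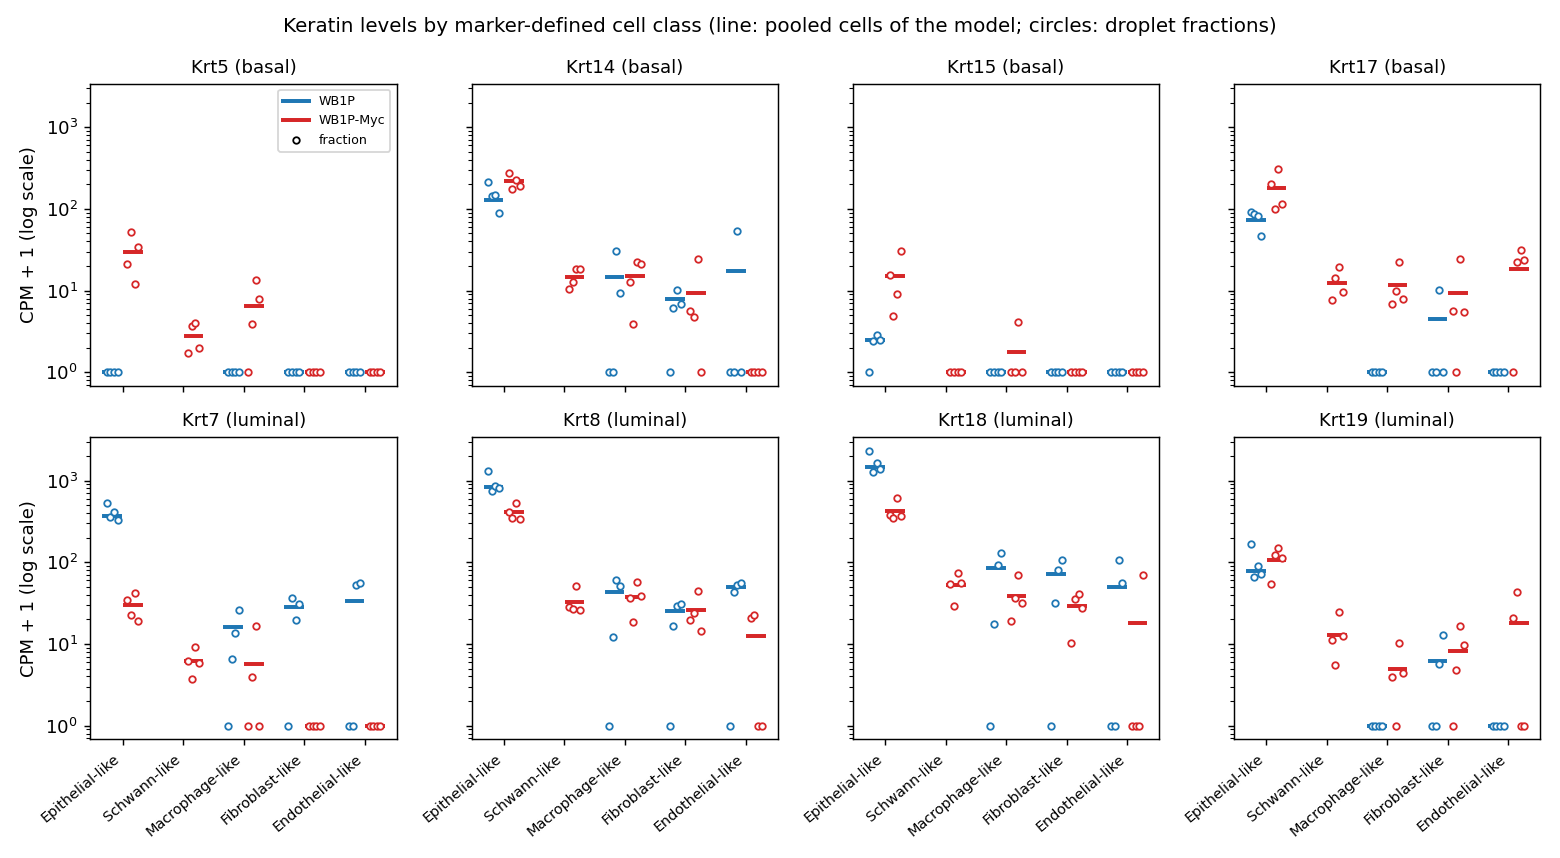
Level of each keratin in CPM plus 1 on a log scale, by marker-defined cell class, in WB1P (blue) and WB1P-Myc (red). Lines are the pooled cells of a model and circles are its 4 droplet fractions. Epithelial-like cells sit above every stromal class for Krt14, Krt8 and Krt18, and Krt5 is at 0 in every WB1P class.

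Krt5, the type II partner of Krt14 in basal cells, was not detected in any kept WB1P cell. With 0 UMIs in the WB1P tumor compartment, a level of up to 1.47 CPM is allowed. In WB1P-Myc it stood at 15.8 CPM (10.1, 27.8, 8.35 and 17.3 CPM), at least 10.7-fold higher when WB1P is set at that limit of 3 UMIs over the model. The exact interval of the log2 ratio began at 3.11, and without WB1P fraction 2 the limit of 3 UMIs gave a log2 ratio of at least 2.78. In the shallower MiSeq tables, with WB1P at the same limit, the log2 ratio was at least 1.42. It was carried by 43 of 2445 WB1P-Myc tumor-compartment cells, and 1 cell of fraction 2 gave 26 of its 150 UMIs. WB1P-Myc macrophage-like cells also held Krt5, at 5.41 CPM from 7 UMIs. Their fractions, at 0 to 12.3 CPM, overlapped those of the tumor compartment.

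Krt14, the type I partner of Krt5, was at 128 CPM in WB1P (213, 143, 145 and 87.7 CPM) and 117 CPM in WB1P-Myc (134, 97.4, 125 and 107 CPM). The fractions overlapped, and the log2 ratio of -0.14 (-0.33 to 0.06) had an interval that included 0. The basal layer is defined by Krt5 and Krt14 together, but the WB1P tumor compartment held Krt14 without detected Krt5. A single cell of WB1P fraction 2 held 55 of the 262 Krt14 UMIs of WB1P.

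Krt17, a keratin of basal and stressed epithelium, was at 71.0 CPM in WB1P (89.6, 85.8, 80.8 and 44.6 CPM) and 94.2 CPM in WB1P-Myc (95.6, 62.4, 158 and 64.3 CPM), log2 ratio 0.41 (0.15 to 0.67), again with fractions that overlapped. Under 13 other settings the Krt17 log2 ratio was 0.36 to 1.17. A single cell of WB1P-Myc fraction 3 gave 167 of the 896 Krt17 UMIs of WB1P-Myc, and without that cell the level was 76.8 CPM. Krt15, a type I keratin of basal cells, rested on 3 UMIs in WB1P (1.47 CPM) and 68 UMIs in WB1P-Myc (7.15 CPM, fractions 6.88, 2.14, 3.71 and 16 CPM). Its log2 ratio of 2.28 had an interval of 0.67 to 4.6. A single cell of WB1P-Myc fraction 4 gave 18 of the 68 UMIs, and without that fraction the log2 ratio was 1.59 and Krt15 was no longer called.

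Krt18, the type I keratin of luminal cells and the member with the most UMIs, was at 1451 CPM in WB1P (2319, 1270, 1639 and 1382 CPM) and 235 CPM in WB1P-Myc (209, 189, 336 and 217 CPM), log2 ratio -2.63 (-2.71 to -2.55). Its partner Krt8 was at 823 CPM in WB1P (1322, 743, 859 and 814 CPM) and 221 CPM in WB1P-Myc (213, 190, 302 and 188 CPM), log2 ratio -1.89 (-1.99 to -1.80). For both genes every WB1P fraction lay above every WB1P-Myc fraction. Krt7, a type II keratin of simple epithelia, was at 367 CPM in WB1P (526, 353, 409 and 328 CPM) and 17.1 CPM in WB1P-Myc (19.2, 12, 25.5 and 12 CPM). Its 21.4-fold difference (log2 ratio -4.42, -4.68 to -4.18) was the widest of the 4 luminal genes. Under 13 other settings the Krt7 log2 ratio was -4.52 to -3.76, and 1 of these values moved by more than the spread of the fractions. Krt19, a type I keratin of simple epithelia, was at 76.9 CPM in WB1P (168, 64, 88.1 and 69.8 CPM) and 57.5 CPM in WB1P-Myc (33, 57.3, 84.8 and 61.6 CPM), log2 ratio -0.42 (-0.68 to -0.15), and its fractions overlapped. UMIs are counted at the 3′ end and were not scaled to transcript length, so levels of different keratins are UMI shares and not protein amounts. In the last 400 bases of the transcripts, 12 of 341 stretches of 60 bases were identical between Krt14 and Krt17, and the other members shared none.

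The comparison of the tumor compartments includes the Schwann-like and unnamed cells of WB1P-Myc, and fewer keratin-bearing cells and less keratin per cell cannot be told apart in these sums. In epithelial-like cells alone, basal keratins were higher in WB1P-Myc, at 442 CPM (507, 330, 552 and 367 CPM) against 202 CPM in WB1P (302, 232, 229 and 135 CPM), log2 ratio 1.13 (0.97 to 1.29), with no overlap. Luminal keratins stayed lower, at 963 against 2735 CPM, log2 ratio -1.51 (-1.56 to -1.45), also with no overlap. Here 6 of 8 members passed the same rule, against 23.3% of 9025 genes (11.6% higher and 11.7% lower), but Krt5 (121 UMIs against 0) and Krt15 (59 against 3) again reached 50 UMIs only through WB1P-Myc. Krt5 (28.5 CPM against 0), Krt15 (13.9 against 1.49 CPM) and Krt17 (181 against 71.3 CPM) were higher in WB1P-Myc, and Krt7 (29.0 against 368 CPM), Krt8 (408 against 828 CPM) and Krt18 (420 against 1461 CPM) were lower. Krt14 (219 against 129 CPM) and Krt19 (107 against 77.8 CPM) had fractions that overlapped. In a check chosen after seeing the data, Krt17 was at 142 CPM without the WB1P-Myc cell of fraction 3 that held 167 of its UMIs, 1.99-fold above WB1P and no longer past the 2-fold rule, and the log2 ratio of the basal sum was 0.96 without the cell with most basal UMIs. The Krt8 call was as close to the rule, with a log2 ratio of -0.98 without 1 WB1P cell. The fractions stayed apart in all 3 cases.

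Most of the WB1P-Myc keratin sat in a small group of cells. At a finer clustering resolution of 0.6, 330 WB1P-Myc cells formed an epithelial-like cluster led by Car6, Cited4, Wfdc18 and Lgals7, with 10 of the 13 epithelial markers leading. It held 13.5% of the WB1P-Myc tumor-compartment cells and 16.8% of their UMIs, but 81.0% of their basal and 65.0% of their luminal keratin UMIs. In this keratin-rich cluster basal keratins were at 1128 CPM (1324, 898, 1101 and 1175 CPM) and luminal keratins at 2058 CPM (1907, 1803, 2522 and 1843 CPM). It was picked as the WB1P-Myc epithelial-like cluster with most leading epithelial markers. The WB1P epithelial cluster at that resolution, of 658 cells, held 97.3% of the WB1P tumor-compartment cells. No like subset of WB1P was taken, so the next values set a part of WB1P-Myc against nearly all of WB1P. Against that WB1P cluster, the basal keratins of the keratin-rich cluster were higher with no overlap (log2 ratio 2.48, 2.32 to 2.64), with Krt14 at 550 against 129 CPM, Krt17 at 464 against 71.4 CPM and Krt5 at 78.9 CPM against 0. The luminal sum differed by a log2 ratio of -0.41 (-0.47 to -0.35) with overlapping fractions. Its members parted: Krt7 was lower at 63.9 against 368 CPM and Krt18 at 856 against 1463 CPM, both with separate fractions, while Krt8 (910 against 829 CPM) and Krt19 (228 against 77.9 CPM) overlapped. Most other WB1P-Myc cells of the epithelial-like class lay in 2 clusters at that resolution, 261 cells that stayed unnamed there and 239 epithelial-like cells. Their basal keratins were at 32.5 ± 30.4 and 36.0 ± 20.7 CPM (mean ± SD, n = 4 fractions), below the 202 CPM of the WB1P epithelial-like cells, and their luminal keratins at 240 ± 71.5 and 315 ± 97.9 CPM. The basal levels were near that of WB1P-Myc macrophage-like cells, at 31.3 ± 20.1 CPM, while luminal keratins there were at 82.9 ± 44.0 CPM.

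**Figure D2:**
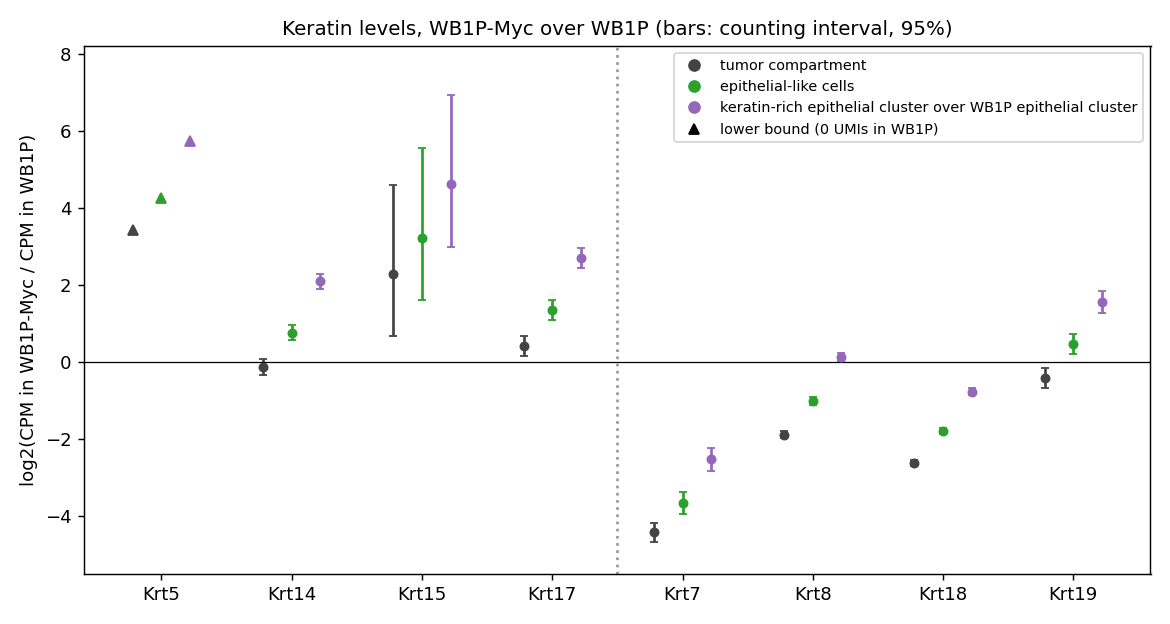
Log2 ratio of each keratin's CPM in WB1P-Myc over WB1P, for the tumor compartment (grey), epithelial-like cells (green) and the keratin-rich cluster over the WB1P epithelial cluster (purple), with 95% counting intervals. The purple comparison sets a keratin-rich part of WB1P-Myc against nearly all WB1P epithelial-like cells. Triangles are lower bounds for Krt5, which had 0 UMIs in WB1P. Krt7 and Krt18 lie below 0 in all 3 comparisons and Krt5 and Krt15 above it.

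The upper limit of 4000 genes bears on these values. It removed 40 WB1P and 134 WB1P-Myc barcodes, which carried 6962 and 10973 keratin UMIs, more than the 5958 and 7273 in the kept tumor compartments. When these barcodes were clustered with the rest, 38 of the 40 and 69 of the 134 were epithelial-like. Without the limit the basal log2 ratio of the tumor compartments was 0.83 (0.72 to 0.94) in place of 0.22, and that of Krt19 was 0.09 in place of -0.42. Krt14 moved from -0.14 to 0.53. In the WB1P-Myc barcodes over the limit the keratins differed between fractions: basal keratins were at 1734, 958, 376 and 512 CPM and luminal keratins at 370, 1455, 2172 and 1960 CPM. The basal ratio also turned to -0.0014 without WB1P fraction 4, which had the lowest basal level of that model.

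Stromal cells held keratin UMIs at a low level. The 8 keratins together were at 156 and 114 CPM in macrophage-like cells of WB1P and WB1P-Myc, 137 and 77 CPM in fibroblast-like cells, and 146 and 63.0 CPM in endothelial-like cells; Schwann-like cells, found in WB1P-Myc alone, held 126 CPM. The macrophage-like class served as the background, since macrophages lack keratin filaments. At resolution 0.6 nearly all of it was a cluster of 984 macrophage-like cells, but 96 T or NK-like cells (17 WB1P and 79 WB1P-Myc) parted from it. In WB1P-Myc the 8 keratins were at 105 CPM in the former (87.4 to 125 CPM) and 215 CPM in the latter (140 to 315 CPM), from 124 and 26 UMIs. Krt5 averaged 24.4 CPM over the WB1P-Myc fractions of the T or NK-like cells (0 to 68.6 CPM), beside 15.8 CPM in the tumor compartment. The log2 ratio of the tumor compartment over the macrophage-like class was 4.23 in WB1P (3.95 to 4.52) and 2.75 in WB1P-Myc (2.52 to 3.00). It was 4.23 and 3.02 at resolution 0.6, where the T or NK-like cells were apart and 261 unnamed WB1P-Myc cells were no longer in the tumor compartment. In WB1P, Krt14, Krt17, Krt7, Krt8, Krt18 and Krt19 were at least 2-fold higher than in macrophage-like cells with separate fractions, as were 20% of the genes tested, and in WB1P-Myc Krt14, Krt17, Krt8, Krt18 and Krt19 were (26.2% of genes). In epithelial-like cells alone the same 6 members passed in WB1P (20.2% of genes), and all but Krt5 in WB1P-Myc (24.3%). The number of members is no support here, because only Krt18 in WB1P had 50 UMIs in macrophage-like cells, and the other members reached that filter with the UMIs of the class where they were high.

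The fibroblast-like cluster did not exceed the macrophage-like level. Its log2 ratio was -0.18 in WB1P (-0.62 to 0.25) and -0.56 in WB1P-Myc (-0.98 to -0.15), and 0 of the 1 and 2 members tested were higher, against 6.28% and 14.4% of genes. When cells were classed one by one from marker UMIs the ratios were 0.43 (0.08 to 0.79) and 0.33 (0.07 to 0.58), so their sign depends on how fibroblasts are named. Schwann-like cells also stood near it, with a log2 ratio of 0.15 (-0.11 to 0.43), and 0 of 5 members tested passed against 23.5% of genes that were higher. For Krt19 the Schwann-like level was 12 CPM beside a macrophage-like level of 3.86 CPM, log2 ratio 1.63 (0.32 to 3.31), and its fractions overlapped. At resolution 0.6 most Schwann-like cells fell into a cluster of 554 Schwann-like cells, with the 8 keratins at 93.2 CPM (mean of the fractions, 47.1 to 167 CPM), and a cluster of 468 chondrocyte-like cells at 199 CPM (156 to 240 CPM), with fractions that overlapped.

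The share of basal keratins among keratin UMIs was low in every WB1P class and higher in every WB1P-Myc class with over 50 keratin UMIs. It was 6.88% in the WB1P tumor compartment, 8.74% in macrophage-like cells (4.07 to 15.9%) and 7.5% in fibroblast-like cells (2.80 to 15.6%). In WB1P-Myc these shares were 30.6%, 27.2% (20.2 to 35.2%) and 21.6% (12.9 to 32.7%), and 21.1% in Schwann-like cells (17.8 to 24.7%). Barcodes under 450 genes, most of which hold little RNA, had 6.67% and 29.5%. The number of Krt8 UMIs per Krt18 UMI was 0.567 in the WB1P and 0.944 in the WB1P-Myc tumor compartment, 0.50 and 0.959 in macrophage-like cells, 0.341 and 0.889 in fibroblast-like cells, and 0.61 in Schwann-like cells. In WB1P-Myc the macrophage-like level was 74.2, 70.7, 207 and 105 CPM by fraction, highest in fraction 3, which also had the highest tumor level. In WB1P it was 0, 33.2, 193 and 211 CPM, from 2 cells in fraction 1, and was lowest in the fraction with the highest tumor level. Whether these UMIs came from free RNA was not tested.

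**Figure D3:**
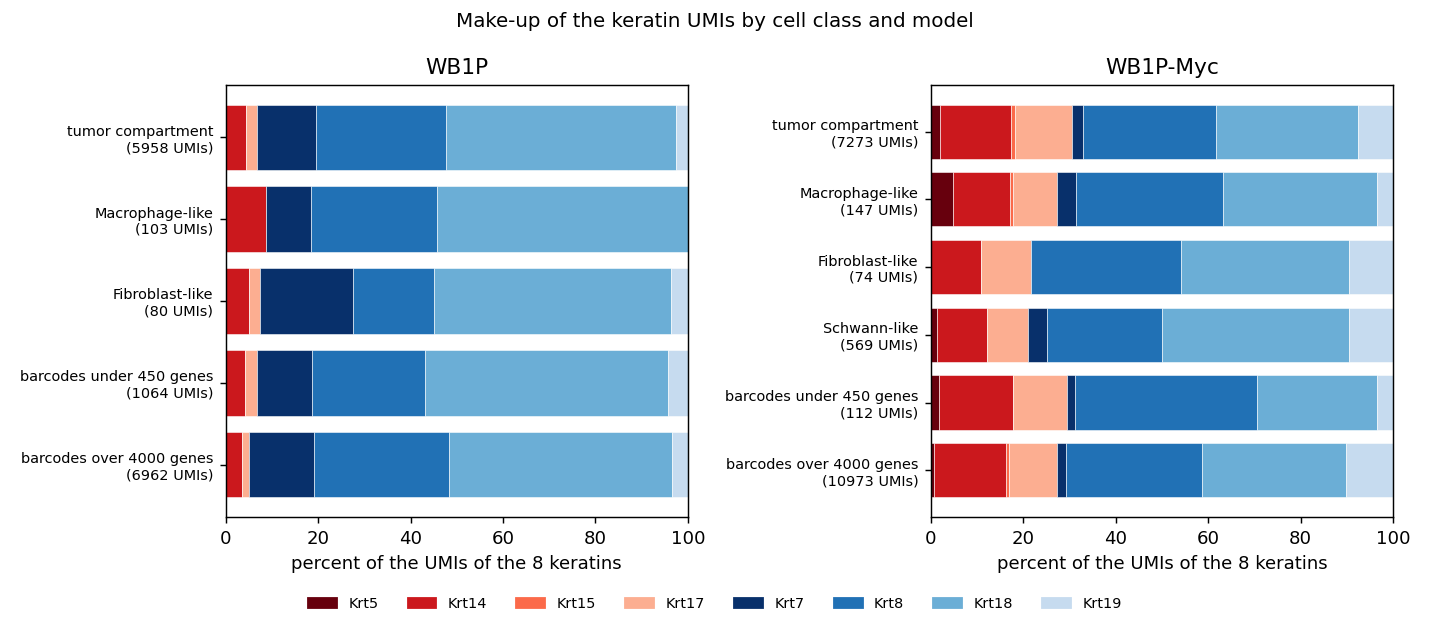
Share of each keratin among the UMIs of the 8 keratins, in percent, by cell class and in barcodes outside the gene limits, for WB1P (left) and WB1P-Myc (right). Reds are basal and blues luminal keratins, and the UMIs behind each bar are given. The basal share is 6.88% in the WB1P and 30.6% in the WB1P-Myc tumor compartment, and lies between 21.1% and 29.5% in the other WB1P-Myc classes shown.

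Single cells were compared at 1000 UMIs each, since more UMIs give more detections, and 149 shallower tumor-compartment cells of WB1P and 234 of WB1P-Myc were left out. At this depth 70.5% of WB1P cells had a luminal keratin UMI and 9.89% a basal one. In WB1P-Myc 21.6% and 10.0% did. The background in macrophage-like cells at the same depth was 13.9% and 1.82% in WB1P and 6.75% and 3.46% in WB1P-Myc. Cells with both made up 9.13% of the WB1P tumor compartment (48 of 526 cells, 6.81 to 11.9%), with fractions at 19.0, 8.29, 7.95 and 9.94%, where fraction 1 had 21 cells. In WB1P-Myc they made up 5.88% (130 of 2211 cells, 4.94 to 6.94%), with fractions at 4.81, 4.75, 8.97 and 5.72%. The fractions of the models overlapped. As sequenced, the shares were 18.2% and 11.7%. Among macrophage-like cells at 1000 UMIs, 3 of 274 in WB1P (1.09%) and 2 of 578 in WB1P-Myc (0.35%) held both. As sequenced, at median depths of 1453 and 1492 UMIs, 3 of 377 and 5 of 701 did.

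Cells with a basal keratin alone were rare in WB1P, at 0.76% (4 of 526 cells) against 61.4% with luminal keratins alone. In WB1P-Myc 4.12% had basal keratins alone (3.33 to 5.03%), 15.7% luminal keratins alone and 74.3% neither. Macrophage-like cells had basal keratins alone in 0.73% of WB1P (0.0885 to 2.61%) and 3.11% of WB1P-Myc cells (1.86 to 4.88%), intervals that overlapped those of the whole tumor compartments. Within WB1P-Myc the share was 1.7% in Schwann-like cells (0.993 to 2.71%), 6.94% in epithelial-like cells (5.30 to 8.90%) and 14.2% in the keratin-rich cluster (10.7 to 18.5%), the last 2 above the macrophage-like counting interval, while it was 0.778% in WB1P epithelial-like cells (0.212 to 1.98%). By fraction, however, the WB1P-Myc epithelial-like share of 5.26 to 8.71% overlapped the macrophage-like share of 1.23 to 6.06%. That of the keratin-rich cluster, at 6.74 to 18.75%, did not. Of the cells with at least 5 basal UMIs as sequenced, all 14 in WB1P also had at least 5 luminal UMIs, while 19 of 108 in WB1P-Myc had no luminal UMI at all. In WB1P, 92.3% of cells with a basal keratin also had a luminal one (81.5 to 97.9%), against 68.1% of cells without a basal keratin. In WB1P-Myc the shares were 58.8% (52.0 to 65.4%) and 17.5%. Cells with both were 1.29 and 2.63 times as many as the product of the separate shares would give, taken within each fraction and summed. Within the keratin-rich WB1P-Myc cluster that ratio was 1.03, with 26.4% of 330 cells positive for both, 36.7% for luminal keratins alone, 14.2% for basal keratins alone and 22.7% for neither.

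**Figure D4:**
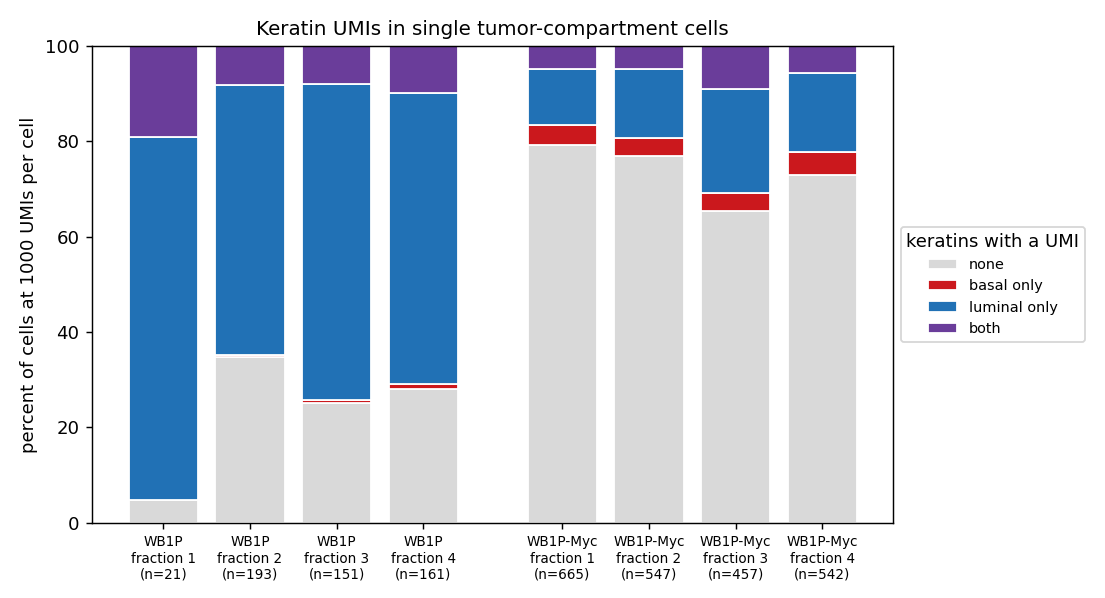
Percent of tumor-compartment cells with no keratin UMI, basal only, luminal only or both, at 1000 UMIs per cell, in each droplet fraction, with the number of cells below each bar. Over the pooled fractions luminal-only cells (blue) are 61.4% of WB1P and 15.7% of WB1P-Myc cells. Basal-only cells (red) are under 1% of the pooled WB1P cells and at most 1.24% in a WB1P fraction.

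Doublets, droplets with more than 1 cell, were looked for because they can mix keratins. Scrublet called 48 of the 4798 cells (1.00%), and these included 3 of the 408 tumor-compartment cells that held both as sequenced. Of the 48 calls 21 were among the 65 cells of WB1P fraction 1, the fraction with the 19.0% share, against 1 to 9 in each other library. With the 1000 UMIs of each cell drawn anew, the WB1P share of cells with both was 9.70% in all fractions, 8.51% when the called cells were left out before clustering and 7.72% without fraction 1, so these values also carry the spread between draws. Among the partner genes, Krt8 and Krt18 were found together in 167 of 514 WB1P epithelial-like cells where the product of their shares, taken within each fraction and summed, gives 127, and in 95 of 330 cells of the keratin-rich cluster against 63.6. Krt14 and Krt17 were together in 31 cells of that cluster, 1.72 times the product. These are ratios within depth-matched cells of a few libraries and describe those cells only.

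In WB1P epithelial-like cells 35 of 39 Krt14 cells (89.7%, 75.8 to 97.1%) and 20 of 20 Krt17 cells carried a luminal keratin, against 69.5% and 69.8% of cells without them. In the keratin-rich WB1P-Myc cluster, 60 of 100 Krt14 cells and 42 of 59 Krt17 cells (71.2%) did, against the 64.3% and 61.3% of cells without them. Of the Krt5 cells there, 4 of 16 carried a luminal keratin (25.0%, 7.27 to 52.4%), against 65.0% of 314 cells without Krt5 (59.4 to 70.2%), and 3 of 10 Krt15 cells did. Of the 16 Krt5 cells 11 also held Krt14 and 8 held Krt17. Among all WB1P-Myc epithelial-like cells the contrast was not seen, with 5 of 17 Krt5 cells (29.4%, 10.3 to 56%) and 33.5% of the others carrying a luminal keratin. The comparison for Krt5 was chosen after its values were seen.

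As sequenced, 26 cells of the cluster had Krt5 and 11 of them a luminal keratin (42.3%, 23.4 to 63.1%), against 85.9% of 304 without it. The share was lower in Krt5 cells in each fraction, at 50, 33.3, 50 and 40% against 79.8, 78.4, 96.6 and 88.9%, from 8, 6, 2 and 10 Krt5 cells. Luminal keratins were at 908 CPM in the Krt5 cells and 2161 CPM in the others, while Krt14 was at 1809 and 436 CPM and Krt17 at 1726 and 350 CPM. By fraction the luminal levels were 1737, 116, 334 and 817 CPM against 1924, 1928, 2578 and 2081 CPM, close to each other in fraction 1. Among epithelial-like WB1P-Myc barcodes over 4000 genes, 9 of 9 with Krt5 (median 44064 UMIs) and 53 of 60 without it (median 22940 UMIs) had a luminal keratin, and deeper barcodes give more detections. Their luminal keratins were at 2498 and 2487 CPM when summed, with medians over barcodes of 794 and 1093 CPM and 1 barcode with Krt5 at 9801 CPM. Their summed basal keratins were at 2807 and 579 CPM.

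**Figure D5:**
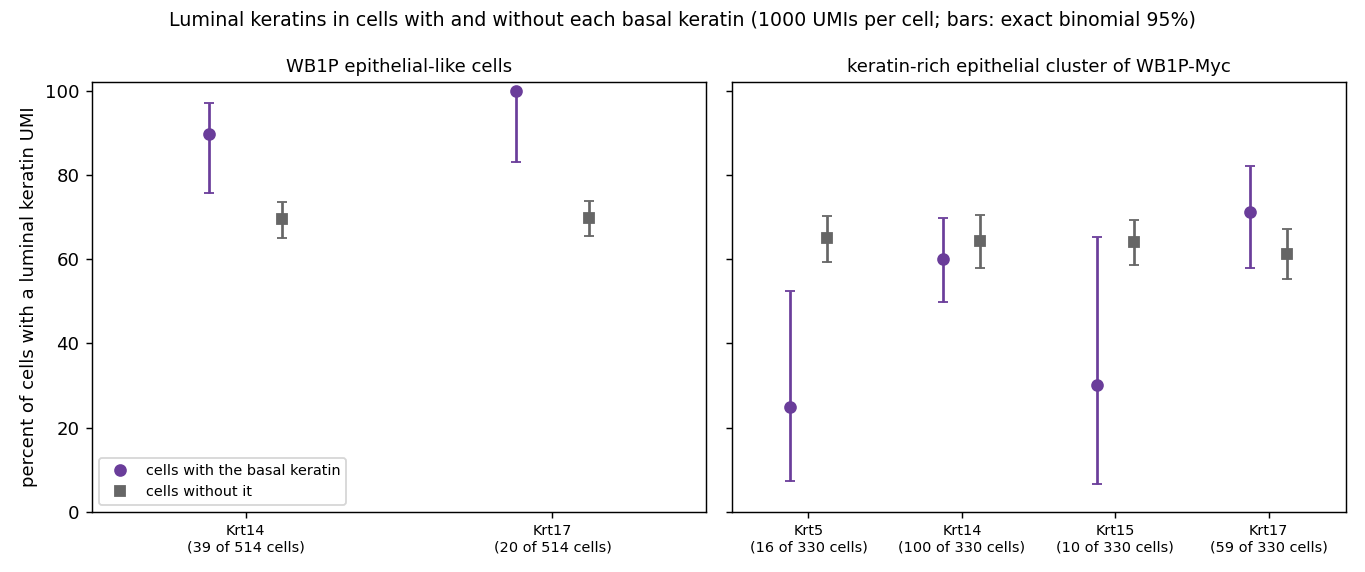
Percent of cells with a luminal keratin UMI among cells with (purple) and without (grey) each basal keratin, at 1000 UMIs per cell, in WB1P epithelial-like cells (left) and the keratin-rich WB1P-Myc cluster (right). Bars are exact binomial 95% intervals. Krt5 cells lie lowest, at 25.0% of 16 cells against 65.0% of cells without Krt5.

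Genes that work with keratins were read in the same comparison, where 14.5% of all genes tested were higher in the WB1P-Myc tumor compartment and 9.23% lower, and 11.6% and 11.7% in epithelial-like cells. Of the keratin linkers and desmosome genes, which anchor keratin filaments at cell contacts, 7 of 9 tested were lower in the WB1P-Myc tumor compartment and 0 were higher, with a median log2 ratio of -1.62 beside 0.09 over all genes. They included Dsp, which ties filaments to the desmosome (31.9 against 65.2 CPM), Jup of its plaque (12.4 against 57.8 CPM), and Pkp1, Pkp2, Pkp3, Dsg2 and Ppl. In epithelial-like cells 2 of 9, Jup and Pkp1, were lower. Of the luminal programme 8 of 12 were lower in the tumor compartment and 0 higher, among them Elf5, a transcription factor of alveolar luminal cells (5.57 against 33.3 CPM), and the milk protein gene Csn3 (12.8 against 920 CPM). In epithelial-like cells 5 of 12, Elf5, Prlr, Elf3, Csn3 and Lcn2, were lower and 0 higher. Of 12 listed basal programme genes only 6 had enough UMIs to be tested, of which 4 were higher (Cnn1, Cdh3, Jag2 and Igfbp2) and 1, Sfn, was lower. In epithelial-like cells 5 were tested, of which 3 were higher (Cdh3, Jag2 and Igfbp2) and 1, again Sfn, was lower. Genes high in WB1P-Myc can reach the UMI filter through that model alone, as Krt5 and Krt15 did. Of 9 other intermediate filament genes 4 were higher in WB1P-Myc, the glial filament gene Gfap, the neuronal filament genes Nefm and Ina, and the lamin gene Lmnb2, beside 8 of 10 genes of the glial programme. In epithelial-like cells 3 of 7 other intermediate filament genes tested, Nefm, Ina and Lmnb2, were higher and 1, Lmna, was lower. Of 9 mesenchymal genes 1 was higher and 1 lower in the tumor compartment, and of 8 mitosis genes 1, Top2a, was higher, shares near those of all genes. Schwann-like cells were seen in WB1P-Myc alone, and in epithelial-like cells 3 of 7 glial genes tested were higher and 1 was lower.

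Few genes passed the rule between cells with both keratin sets and others, where few cells and UMIs limit the calls. In WB1P epithelial-like cells at matched depth, the 48 cells with both were compared with the 317 cells with luminal keratins alone. Of 4 luminal programme genes tested 3 were lower, Ehf (41.7 against 174 CPM), Csn3 (333 against 1104 CPM) and Wfdc18 (583 against 2653 CPM). The Ehf log2 ratio of -2.06 had a wide interval (-5.14 to -0.14). Of 1277 genes 2.43% were lower and 1.25% higher. Ehf, Csn3 and Wfdc18 reached the UMI filter only through the cells with luminal keratins alone, so their number is no support. In WB1P-Myc epithelial-like cells, the 94 cells with both had higher Epcam (1202 against 333 CPM), Cldn3, Cldn7 and Spint2, 4 of 4 epithelial markers tested, than the 490 with neither (3.21% of 1870 genes were higher). Lmna (553 against 249 CPM) and Wfdc18 (6021 against 271 CPM) were also higher, the latter lower in the WB1P comparison. Vim, Cnp and Sox10 were lower (4.06% of genes were), Sox10 with a log2 ratio of -1.40 whose interval included 0 (-3.33 to 0.04). Of the 4 epithelial markers, Cldn3, Cldn7 and Spint2 reached the UMI filter only with the UMIs of the cells with both. Vim, Cnp and Sox10 reached it only through the cells with neither, so the numbers called in either direction are no support. The keratin-rich cluster held 87 cells with both and 75 with neither at this depth, so cells with both and cells with neither lay largely in different clusters, and cells with neither are not the comparator used in WB1P. Within the keratin-rich cluster none of the listed genes with enough UMIs (Lmna, Ehf, Cd24a, Wfdc18, Mki67, Top2a, Epcam and Cldn3) passed the rule between cells with both and cells with luminal keratins alone, where 0.736% of 679 genes were higher and 0.442% lower.

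Levels were also correlated over 32 library and class sums. Among the members Krt14 went with Krt8 at Pearson's r = 0.95 and with Krt17 at 0.92, and Krt8 with Krt18 at 0.94. Among genes other than the 8 members, Krt18 was most like Epcam (0.97), Krt8 most like Ehf (0.97) and Cldn3 (0.97), and Krt7 most like Lcn2 (0.96) and Wfdc2 (0.95). Krt14 was most like Ehf (0.93) and Perp (0.93), Krt17 most like Car6 (0.93), and Krt19 most like Syne4 (0.91). Krt5 went with Zdbf2 (0.92) and Krt15 with Utf1 (0.79), both over few UMIs. These correlations are a description of points that share libraries and depth.

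Of the 17 other numbered keratins, 5 reached 50 UMIs over all kept cells. Krt10, Krt79, Krt23, Krt6a and Krt16 had 407, 355, 170, 123 and 50 UMIs, and the other 12 had at most 21. Krt10, a keratin of differentiating stratified epithelium, was at 18.6 CPM in the WB1P and 35.7 CPM in the WB1P-Myc tumor compartment. Krt6a, a partner of Krt16 and Krt17, was at 29.9 and 6.41 CPM, with 34 of its 123 UMIs in 1 cell.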

How the data were processed

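Single-cell count tables of 8 HiSeq libraries were used, and 8 MiSeq tables of the same fractions served as an alternative. The authors made them with dropseq-tools on mm10 and deposited raw UMI counts per gene and barcode, 1000 barcodes per library; which aligner was run is not stated in the sources used here. The 8 members and all gene lists were chosen with earlier results of these data known. Barcodes with 450 to 4000 genes and under 20% mitochondrial UMIs were kept. Counts were scaled to 10000 per cell and logged, and without keratins reduced to 30 principal components and clustered by Leiden (20 neighbours, resolution 0.3; Scanpy 1.11.5). A cluster was named from at least 3 leading markers, keratins left out. CPM is the summed UMIs of a class over its total. Poisson, Clopper-Pearson and conditional binomial intervals are 95%, and a count of 0 was bounded at 3 UMIs. A gene was called when the models or classes differed at least 2-fold with all fractions apart, among genes with at least 50 UMIs. Cells were thinned to 1000 UMIs in 1 seeded draw. Cells called by Scrublet were kept in the values and left out in an alternative. Named genes were the 8 members, other numbered keratins with at least 50 UMIs, fixed pathway lists, and the genes most correlated with each member in log2(CPM + 10) over sums of at least 20 cells. Scripts were tested on simulated counts. TMM factors (edgeR 4.0.16) and size factors (DESeq2 1.42.0) were alternatives for scaling. No test was run between models, because each model is 1 suspension. The knocked-out genes could not be checked, since 3′ tags can lie outside the deleted part. The result of 1 of the fixed gene lists is not reported here.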

Additional observations from a re-analysis of the deposited data

Results flagged for a closer look

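In the tumor compartment of WB1P-Myc, fraction 3 stood apart for the luminal keratins, at 748 CPM beside 448 to 478 CPM in the other 3 fractions, a gap of 0.901 of the whole range. The macrophage-like cells of the same fraction were also highest in keratin UMIs, at 207 CPM beside 70.7 to 105 CPM. Of 30 groups of fractions checked in this way 1 stood apart, and chance alone gives about 1 in 20.

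Barcodes outside the gene limits, which were left out of the main comparisons of models and classes, held keratin UMIs above the macrophage-like level of 156 CPM in WB1P and 114 CPM in WB1P-Myc. Those under 450 genes held 1374 CPM in WB1P and 544 CPM in WB1P-Myc. Those over 4000 genes held 4361 CPM and 2453 CPM.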

How the results depend on the processing

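Of 112 values under other settings 9 moved by more than the spread of the fractions and 1 whose interval had left out 0 changed sign, as did 1 of 48 values without 1 fraction. The log2 ratio of luminal keratins between the models held under all of them, at -2.52 to -1.86, and at -2.54 to -2.28 without 1 fraction. The basal ratio was 0.83 without the upper limit on genes, and -0.00138 to 0.342 without 1 fraction, where the lowest value is that without WB1P fraction 4. The Krt19 ratio was 0.089 without the upper limit. The Krt5 ratio, set at 3 UMIs where WB1P had 0, was 1.42 in the MiSeq tables and 4.24 without the upper limit. It was 5.16 with barcodes from 200 genes up, a value not set at that limit, since WB1P barcodes under 450 genes held 1 Krt5 UMI. The share of cells with both keratin sets was 18.2% in WB1P and 11.7% in WB1P-Myc without thinning, 2.85% and 1.90% when 2 UMIs were asked for, and 3.56% in WB1P-Myc at 600 UMIs, settings that change how much is detected by construction. The WB1P-Myc log2 ratio of tumor over macrophage-like cells was 3.5 without the upper limit and 3.45 in the MiSeq tables. The WB1P-Myc ratio of fibroblast-like over macrophage-like cells was 0.33 when cells were classed singly by marker UMIs, and that of WB1P, whose interval had included 0, went from -0.18 to 0.43. The members with separate fractions were 3 in the MiSeq tables (Krt7, Krt8 and Krt18) and 4 to 6 elsewhere. Where no construction is named, the cause was not tested. Leaving out the unnamed cluster, chosen after seeing the data, gave a basal ratio of 0.18 and a luminal ratio of -2.40. No paired analysis was possible because the results come from no test and the fraction numbers of the models share no cells. Depth limits Krt5 and Krt15, which had 0 and 3 UMIs in the WB1P tumor compartment.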
